A study of Mus musculus with 22 samples.

Results

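The effect of losing Hox function was compared between mouse embryonic stem (mES) cells and the endoderm cultures made from them, gene by gene. For each gene the Hox-/- minus wt effect in mES cells was subtracted from the same effect in endoderm cultures, on the log2 scale. This difference of the genotype effects is positive where Hox-/- cells were, relative to wt, higher in endoderm than in mES cells, and negative where they were lower. It used 10 of the 22 libraries of the series. The 2 tables were joined by gene identifier, which gave 55055 genes, of which 53448 lay outside the 39 Hox genes and chromosome Y. Of those, 16206 had enough counts to be tested, and the description covers all of them. The choice of this comparison and of all genes outside the Hox genes and chromosome Y used no measured value. The count filter and the naming of genes did use these data. The gene lists were chosen with earlier results of these data known.

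There were 4 groups, with 2 libraries each of wt and Hox-/- mES cells and 3 libraries each of wt and Hox-/- endoderm cultures. The mES cells of either genotype grew in medium containing LIF, the GSK-3 inhibitor CHIR99021 at 3 µM, which activates Wnt signalling, and the MEK inhibitor PD0325901 at 1 µM. For endoderm, 50000 cells per well were placed in a low-serum medium with B27, received 100 ng/ml Activin A with 3 µM CHIR99021 at 24 h and again at 72 h, and were collected at 120 h. The labels call the collected cultures mixed cells, and they list no MEK inhibitor or LIF for the differentiation medium. The medium and the state of the cells therefore changed together. The number of clones per genotype is not in the labels, and an effect of the genotype and one of a single line cannot be told apart. The labels also do not say whether replicates were separate cultures, so p-values measure the spread between these libraries, which may be technical.

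Hox genes encode homeodomain transcription factors that give cells their position along the body axis, and they are switched on in order from the late primitive streak onwards. Undifferentiated mES cells are held by a network of transcription factors that includes Pou5f1, Sox2, Nanog and Esrrb. Activin A acts through the Nodal pathway and, together with Wnt activation, drives stem cells through a primitive streak-like state to mesoderm and endoderm.

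The libraries held 11.9 to 17.6 M (mega) counts. Summed over the 39 Hox genes, wt mES libraries held 30.4 and 35.7 CPM (counts per mega, a library total scaled to 1 M) and Hox-/- mES libraries 0.448 and 1.34, a mean of 33.06 ± 3.77 (SD, n = 2) against 0.896 ± 0.634. Wt endoderm held 828.5 to 876.7 CPM and Hox-/- endoderm 22.5 to 28.6, so the genotype labels and the Hox sum went the same way in every library (two-sided exact permutation test in endoderm p = 0.1, the smallest that 3 against 3 allows). Mitochondrial genes took 0.909% to 1.42% of counts. Ribosomal protein genes took 9.99% to 10.2% in wt endoderm and 8.2% to 8.71% in Hox-/- endoderm, against 6.69% to 7.19% in mES cells. Both ends of the mitochondrial range lay in Hox-/- endoderm, in replicate 3 (0.909%) and replicate 2 (1.42%). Whether any library deviated from its group was not tested. Each pair of replicates was further apart than counting noise, at a chi-square of 1.55 to 6.83 per degree of freedom, so no library was a copy of another.

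The mES libraries held the markers of their label, with a mean of 1304 CPM of Pou5f1 and 321 CPM of Sox2 in wt. The endoderm markers Sox17 and Foxa2 were near 0 in mES cells and present in the endoderm cultures, whereas Trh, also listed for definitive endoderm, was as high in wt mES cells as in wt endoderm. Other endoderm markers chosen for this check are not reported here. Sox17, a transcription factor of definitive endoderm, stood at 24.5 ± 0.848 CPM in wt endoderm and 4.89 ± 1.16 in Hox-/- endoderm (SD, n = 3). Foxa2, a pioneer factor of the same lineage, stood at 18.6 ± 1.16 and 4.18 ± 1.22 CPM (SD, n = 3). The cultures also held T, a marker of streak and mesoderm, at 174 ± 9.07 and 236 ± 7.30 CPM (SD, n = 3). In such bulk libraries fewer cells of a type and less RNA per cell cannot be told apart.

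The genotype effect differed between the cultures in 3912 genes at an adjusted p under 0.05, which is 24.1% of the genes tested (edgeR quasi-likelihood test, Benjamini-Hochberg adjustment over all genes). The difference was positive in 1888 (11.7%) and negative in 2024 (12.5%). At 2-fold or more there were 1221 called genes (7.53%), 411 positive (2.54%) and 810 negative (5.00%). The median difference over all genes tested was 0.02. In 3806 of the 3912 genes every Hox-/- to wt ratio that could be formed between endoderm libraries lay on one side of every such ratio in mES cells, a separation that 39.9% of all genes tested also showed. Without wt mES replicate 1 the count was 2718, with 1108 positive. When only genes with 10 or more counts in every library were kept, 705 genes of 2-fold or more were called, from a shorter list of genes.

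Most of these differences came with an effect in endoderm and none called in mES cells. Of the 3912 genes, 2610 were called between genotypes in endoderm only, 453 in mES cells only, 447 in both with opposite signs, 160 in both with the same sign and 242 in neither. The genotype effect was larger in endoderm for 2742 genes and larger in mES cells for 1170. Over all genes, 46.1% were called between genotypes in endoderm (22.1% higher and 24.0% lower in Hox-/-) and 11.9% in mES cells (5.12% higher and 6.78% lower). The endoderm contrast rests on 6 libraries and the mES contrast on 4. The mES count of 1928 was 685 to 1017 when any 1 of the 4 mES libraries was left out, 3154 when the mES groups were fitted on their own and 1213 with DESeq2.

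**Figure D1:**
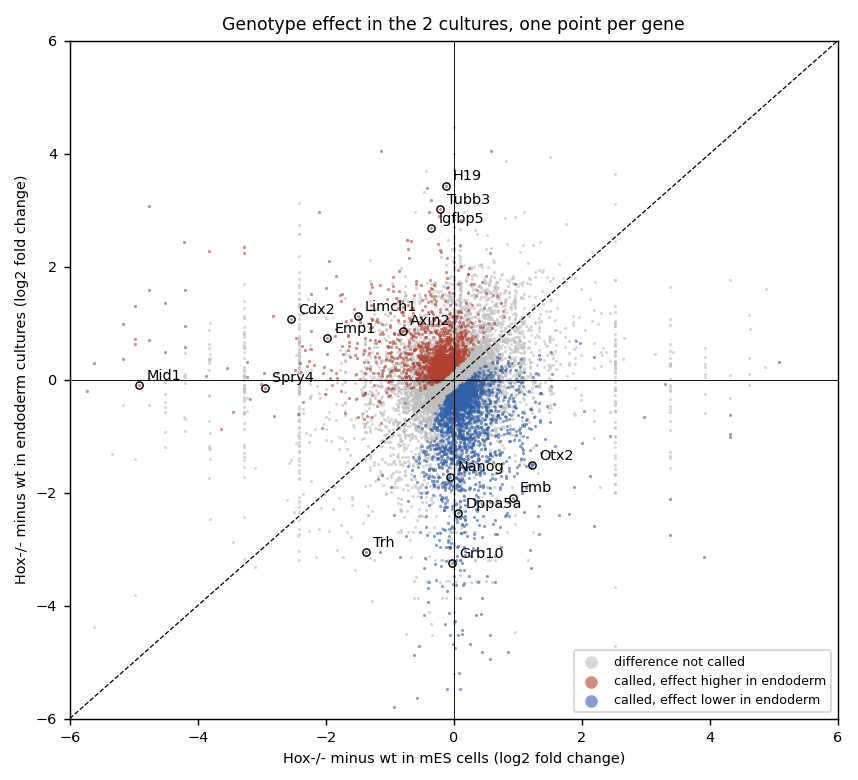
Each point is 1 of 16185 genes, with the Hox-/- minus wt log2 fold change in mES cells on the horizontal axis and in endoderm on the vertical axis (21 genes lie outside the axes). Red and blue points have a called difference above and below the dashed line of equal effects, and grey points have none; the vertical stripes are genes with very few counts in mES cells. Grb10, Dppa5a and Nanog sit near 0 in mES cells and far below 0 in endoderm, whereas Spry4 and Mid1 sit far to the left and near 0 in endoderm.

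Genes with almost no reads in mES cells could rarely be called. In 969 genes every mES library held 3 counts or fewer, and 25 of them (2.58%) had a called difference, against 25.5% of the other genes. In endoderm 49.7% of them were called between genotypes. For those genes the endoderm effect is given alone, since no fold can be formed in mES cells. The called genes were spread over the genome. On the autosomes and the X chromosome the median difference lay between -0.02 (chromosome 7) and 0.05 (chromosome 18), and 19.8% to 27.8% of the genes tested were called. None of the 13 mitochondrial genes tested was called higher and 2 were called lower.

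The pluripotency genes, naive and general factors together, showed the most uniform pattern among the lists examined. All 24 listed genes were tested, and 23 had a called negative difference, against 12.5% of all genes. Their median difference was -1.62 log2 units, made of -0.12 in mES cells and -1.71 in endoderm. In Hox-/- endoderm 23 of the 24 were called lower than in wt endoderm, where 24.0% of all genes were. In mES cells 8 were called lower and 2 higher. The exception was Sall4, a zinc finger partner of Pou5f1 named here after its values were seen, with a difference of 0.24 ± 0.07 (SE, adjusted p = 0.0157).

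To show the DNA in front of genes of this network, the 250 bases before the start of Nanog and Zfp42 are printed from RefSeq (GRCm38.p6), 5′ to 3′ on the gene's strand. Capitals mark letters that match the POU octamer core TTTGCAT, bound by factors such as Pou5f1, or the SOX core ACAATG, in either orientation.
Nanog chr6:122707239-122707488: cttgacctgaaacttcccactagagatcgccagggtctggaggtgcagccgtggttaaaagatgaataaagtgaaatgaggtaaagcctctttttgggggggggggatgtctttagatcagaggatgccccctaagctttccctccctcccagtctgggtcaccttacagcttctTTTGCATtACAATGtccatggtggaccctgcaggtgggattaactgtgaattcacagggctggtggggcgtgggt
Zfp42 chr8:43307010-43307259: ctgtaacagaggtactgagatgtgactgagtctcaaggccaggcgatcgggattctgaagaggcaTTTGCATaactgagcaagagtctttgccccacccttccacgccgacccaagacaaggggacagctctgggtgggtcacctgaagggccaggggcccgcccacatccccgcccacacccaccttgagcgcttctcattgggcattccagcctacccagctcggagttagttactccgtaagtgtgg
In Nanog the octamer core starts 75 bases before the start and is followed after 1 base by the SOX core. Zfp42 has an octamer core 185 bases before its start and no SOX core in this window. Of 15 pluripotency genes with a RefSeq window, 3 held the octamer core in at least 1 window (20.0%), against 3.96% of the 11503 tested genes with windows. The share was 4.49% among genes with a called positive difference and 4.50% among those with a negative one. A homeodomain core, TAATTA, was in 2.11% of the positive, 4.76% of the negative and 3.09% of all tested genes. These matches describe letters in short windows, not bound sites.

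Dppa5a, an RNA-binding protein of naive stem cells, had the second smallest p among negative differences. It stood at 1401 and 1437 CPM in wt mES cells, 1526 and 1512 in Hox-/- mES cells, 232, 288 and 255 in wt endoderm and 50.5, 50.1 and 50.02 in Hox-/- endoderm. The 4 mES libraries lay close together, while every Hox-/- endoderm library lay below every wt one, 5.14-fold in the fitted means. The difference of the genotype effects was -2.43 ± 0.09 (SE, adjusted p = 1.21e-12).

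Zfp42, also called Rex1, is a zinc finger gene that stem cells silence on leaving the naive state. Its levels were 546 and 556 CPM in wt mES cells, 498 and 517 in Hox-/- mES cells, 52.6, 55.9 and 47.1 in wt endoderm and 10.1, 10.4 and 11.1 in Hox-/- endoderm. The genotypes were within 1.11-fold of each other in mES cells and did not overlap in endoderm, with a difference of -2.15 ± 0.10 (SE, adjusted p = 6.98e-12). Nanog, a homeodomain factor that holds cells in the naive state, was at 921 and 924 CPM in wt mES cells, 900.1 and 911 in Hox-/- mES cells, 96.8, 111 and 107 in wt endoderm and 31.5, 31.98 and 32.1 in Hox-/- endoderm. The mES genotypes lay within 1.04-fold of each other, the endoderm libraries did not overlap between genotypes, and the difference was -1.66 ± 0.08 (SE, adjusted p = 1.76e-11). Esrrb, an orphan nuclear receptor of the same network, had a difference of -1.82 ± 0.09 (SE, adjusted p = 1.76e-11), from 1023 ± 10.7 and 953 ± 25.00 CPM in wt and Hox-/- mES cells (SD, n = 2) and 100.2 ± 8.30 and 25.9 ± 0.986 in endoderm (SD, n = 3).

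The general pluripotency factors were called as well. The difference was -1.25 ± 0.10 (SE) for Pou5f1 and -1.47 ± 0.11 (SE) for Sox2. Klf4, a further naive factor, had a called difference of -1.31 ± 0.10 (SE) and was also called lower in Hox-/- mES cells, with an effect of -0.39 ± 0.06 (SE). Tdh, threonine dehydrogenase, a metabolic enzyme on which mouse stem cells depend, stood at 878 and 887 CPM in wt mES cells, 841 and 790.2 in Hox-/- mES cells, 87.8, 97.4 and 86.4 in wt endoderm and 18.4, 16.8 and 19.3 in Hox-/- endoderm. It followed the same course, with a difference of -2.17 ± 0.09 (SE, adjusted p = 3.14e-12), although a predicted gene on the opposite strand overlaps its exons.

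From mES cells to endoderm, 22 of the 24 pluripotency genes were called lower in wt and 23 in Hox-/- cells, where the fall was larger. The exceptions were Lin28a and, in wt only, Dppa3. The median endoderm minus mES log2 change over the 24 genes was -3.33 in wt and -4.91 in Hox-/-. Over all genes tested these medians were 0.07 and 0.10, and 79.9% of all genes were called in wt and 80.8% in Hox-/-. These comparisons share the 10 libraries with the difference itself and restate it. Beside this, the summed level of 16 caudal progenitor genes was 789.9 to 877 CPM in wt endoderm and 1377 to 1455 in Hox-/- endoderm, and its part in the result was not tested.

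**Figure D2:**
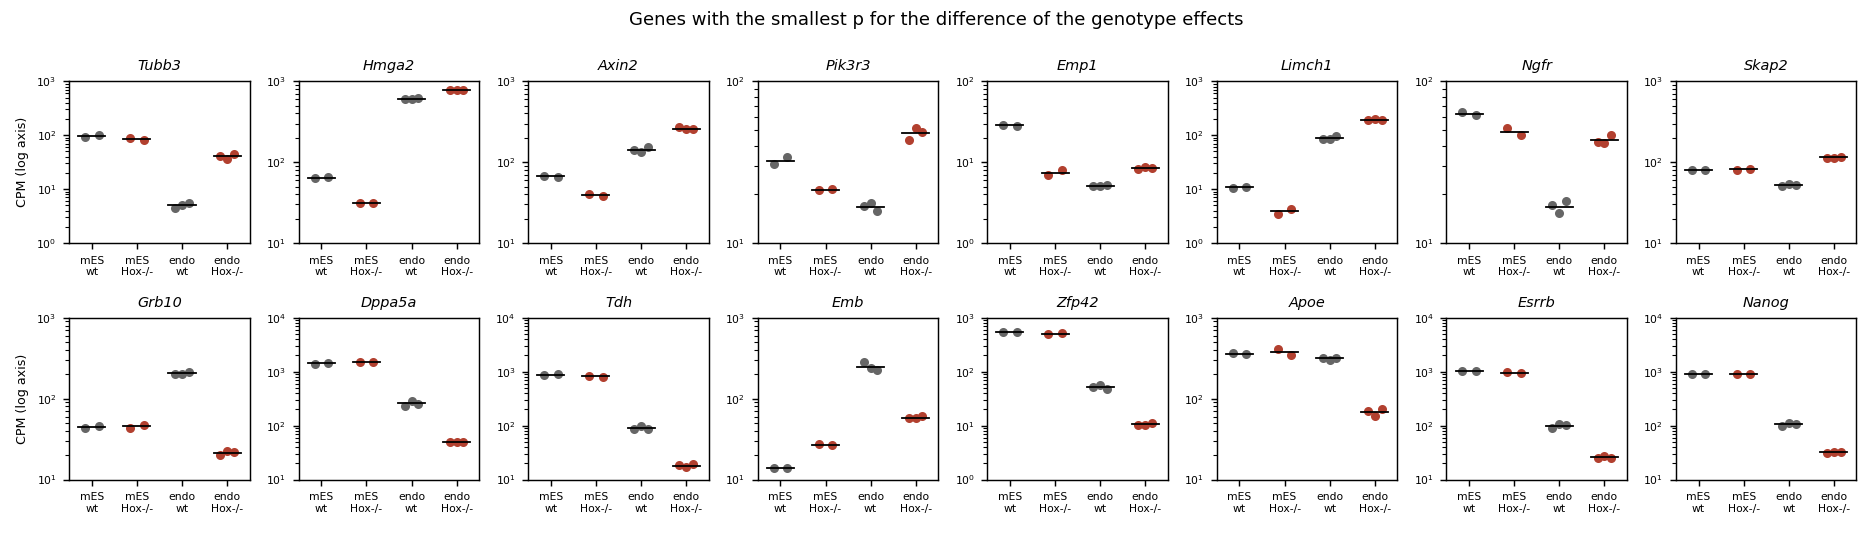
Level of 16 genes in each library in CPM on a log axis, wt in grey and Hox-/- in red, with the group mean as a bar. The upper row holds the 8 genes with the smallest p among positive differences of 2-fold or more, the lower row the 8 among negative ones. In the lower row the mES groups lie close together for every gene but Emb, and the red endoderm points lie below the grey ones.

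Of 18 germline and meiosis genes tested, 8 had a called negative difference and none a positive one, against 12.5% and 11.7% of all genes. Their median was -1.23, but -0.78 without wt endoderm replicate 2 and -0.67 over the members with 10 counts in every library. In Hox-/- endoderm 11 were called lower and 1 higher, against 24.0% and 22.1% of all genes. Dazl, an RNA-binding protein of germ cells, stood at 17.9 and 21.5 CPM in wt mES cells, 23.5 and 20.5 in Hox-/- mES cells, 1.95, 2.77 and 2.85 in wt endoderm and 0.398, 0.431 and 0.441 in Hox-/- endoderm. The mES genotypes overlapped and the endoderm ones did not, with the Hox-/- endoderm libraries near their counting floor of 0.17 to 0.189 CPM, and the difference was -2.70 ± 0.35 (SE, adjusted p = 2.8e-06). Hormad1, of the meiotic chromosome axis, had a difference of -3.54 ± 0.83 (SE, adjusted p = 0.00015). Stag3, a meiotic cohesin subunit, was called higher in Hox-/- mES cells (0.50 ± 0.08, SE, adjusted p = 0.000489) and lower in Hox-/- endoderm (-0.78 ± 0.06, SE, adjusted p = 5.77e-09).

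Pecam1 and Mapt, held by lists of other cell types, were higher in wt mES cells than in wt endoderm. The lists they come from were split. From mES cells to endoderm in wt, 4 of 13 endothelial and blood genes were called lower and 7 higher. Of 16 neuronal genes 9 were called lower and 6 higher. Over all genes 79.9% were called in that comparison. Pecam1, an endothelial adhesion molecule that mouse stem cells also carry, stood at 117 and 117 CPM in wt mES cells, 173 and 181 in Hox-/- mES cells, 10.1, 9.63 and 8.46 in wt endoderm and 3.58, 3.998 and 2.96 in Hox-/- endoderm. It was higher in Hox-/- than wt mES cells and lower in Hox-/- than wt endoderm, with a difference of -1.97 ± 0.14 (SE, adjusted p = 2.02e-09). Mapt, a microtubule protein known from neurons, stood at 65.8 ± 1.25 CPM in wt mES cells (SD, n = 2) but 2.08 ± 0.243 in wt endoderm (SD, n = 3), and had a difference of -1.41 ± 0.24 (SE), called. Of 13 endothelial and blood genes, 4 had a called negative difference and none a positive one, against 12.5% and 11.7% of all genes. The 4 were Pecam1, Gata1, Kdr and Etv2. Of these, Gata1 was at 0 counts in every Hox-/- endoderm library, and the calls of Kdr and Etv2 were lost with DESeq2 and without 1 or more mES libraries.

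Genes that mark definitive endoderm were mostly lower in Hox-/- endoderm. Of 17 tested, 14 were called lower there and 1 higher, against 24.0% and 22.1% of all genes, with a median endoderm effect of -1.45. In 6 of the 17 every mES library was at the floor. Negative differences were called for 5, namely Trh, Hnf4a, Prdm1, Hhex and Foxa3, and positive ones for none, against 12.5% and 11.7% of all genes; the median difference was -1.45, or -1.35 when genes at the floor were placed at 3 counts. Foxa3 is named after its values were seen. Sox17 was lower in Hox-/- endoderm, with an effect of -2.33 ± 0.14 (SE, adjusted p = 1.71e-11), and Foxa2 with one of -2.16 ± 0.15 (SE, adjusted p = 3.25e-10).

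Hnf4a, a nuclear receptor of gut and liver endoderm, stood at 3.65 and 4.74 CPM in wt mES cells, 2.99 and 3.95 in Hox-/- mES cells, 15.7, 14.97 and 15.7 in wt endoderm and 1.87, 2.21 and 2.71 in Hox-/- endoderm. The mES genotypes overlapped in range, and all Hox-/- endoderm libraries lay below all wt ones, with a difference of -2.46 ± 0.27 (SE, adjusted p = 1.39e-06). Trh, which encodes thyrotropin-releasing hormone and marks early definitive endoderm, was at 263 and 248 CPM in wt mES cells, 99.1 and 103 in Hox-/- mES cells, 264, 258 and 246 in wt endoderm and 30.6, 29.6 and 32.3 in Hox-/- endoderm. It was lower in Hox-/- cells in either culture, 2.59-fold in mES cells and 8.29-fold in endoderm, and the difference of -1.68 ± 0.08 (SE, adjusted p = 1.86e-11) came on top of the mES effect. Prdm1, a repressor used in endoderm and germ cells, differed in mES cells instead. Its effect there was 0.71 ± 0.11 (SE, adjusted p = 0.000152), against -0.02 ± 0.08 (SE) in endoderm, which was not called.

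Visceral endoderm and liver-secreted genes gave 6 called negative differences of 14 tested and none positive, against 12.5% and 11.7% of all genes. Their median was -1.92, or -1.68 with floor genes at their bound, and 13 of the 14 were called lower in Hox-/- endoderm (24.0% of all genes). Apoe, a lipid carrier protein, was at 363 and 352 CPM in wt mES cells, 408 and 343 in Hox-/- mES cells, 319.8, 304 and 320.3 in wt endoderm and 69.99, 61.6 and 73.8 in Hox-/- endoderm. Only the Hox-/- endoderm libraries were low, and the difference was -2.24 ± 0.10 (SE, adjusted p = 1e-11). Apob, the main protein of liver and yolk sac lipoproteins, was at 93.2 ± 11.1 and 15.02 ± 3.08 CPM in wt and Hox-/- endoderm (SD, n = 3) and under 1 CPM in mES cells, and its call was lost without Hox-/- mES replicate 2.

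Most epithelial genes were called lower in Hox-/- endoderm and most mesenchymal genes higher, where 24.0% and 22.1% of all genes were. Of 23 epithelial genes tested, 21 were called lower in Hox-/- endoderm and none higher; 9 had a called negative difference and 3 (Krt8, St14 and Esrp2) a positive one, with a median of -0.48. Of 20 mesenchymal genes, 14 were called higher in Hox-/- endoderm and 2 lower; 8 had a called positive difference and none a negative one, with a median of 0.77. Over all genes, 11.7% had a called positive difference and 12.5% a negative one. The mesenchymal genes summed to 4802 to 5597 CPM in wt endoderm and 7092 to 7818 in Hox-/- endoderm. In mES cells they summed to 1836 to 1838 CPM in wt and 2405 to 2502 in Hox-/-, so the sum was higher in Hox-/- in either culture. The typical member was not, since the median effect in mES cells was -0.43. In Hox-/- mES cells 2 of the 20 were called higher and 2 lower, against 5.12% and 6.78% of all genes.

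Cdh1, the epithelial cadherin, stood at 595 ± 1.33 and 629 ± 6.42 CPM in wt and Hox-/- mES cells (SD, n = 2), and at 276 ± 4.85 and 177 ± 0.705 in endoderm (SD, n = 3). Its difference was -0.68 ± 0.06 (SE, adjusted p = 1.24e-07). Krt8, a keratin of simple epithelia, was an exception, with a positive difference of 1.75 ± 0.24 (SE, adjusted p = 8.53e-06). It stood at 9.63 and 9.33 CPM in wt mES cells, 2.24 and 2.60 in Hox-/- mES cells, 283, 282 and 321 in wt endoderm and 263, 225 and 253 in Hox-/- endoderm, so that the large gap lay in mES cells. On the mesenchymal side the difference was 0.77 ± 0.11 (SE) for Zeb1, a repressor of Cdh1, 0.57 ± 0.10 (SE) for Vim, an intermediate filament gene, and 0.99 ± 0.18 (SE) for the collagen gene Col5a1. Vim was called lower in Hox-/- mES cells (-0.40 ± 0.08) and higher in Hox-/- endoderm (0.17 ± 0.06).

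The Wnt and caudal progenitor lists had positive medians, though 4 Wnt genes were called negative. Canonical Wnt signalling stabilises beta-catenin, which acts with TCF/LEF factors and turns on feedback genes such as Axin2, Notum and Nkd1. In the tail-forming region of the embryo it also sustains Cdx genes and T. Of 19 Wnt targets and antagonists tested, 8 had a called positive difference and 4 a negative one, against 11.7% and 12.5% of all genes, with a median of 0.67. The 8 were Axin2, Notum, Ccnd1, Sp5, Apcdd1, Lef1, Nkd1 and Ccnd2, and the 4 were Sfrp1, Sfrp2, Sfrp5 and Lgr5. Among the 4 negative ones, Sfrp1, Sfrp2 and Sfrp5 encode secreted Frizzled-related proteins, which bind Wnt ligands; those beyond the 4 genes of smallest p are named after their values were seen. Of 16 caudal progenitor genes 9 had a called positive difference and none a negative one, against the same shares of all genes, with a median of 1.31, or 1.13 with floor genes at their bound.

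Sp5 and Cdx2 are shown next because they stood several-fold lower in Hox-/- mES cells but not in Hox-/- endoderm. Their RefSeq windows of 250 bases before the start (GRCm38.p6, gene strand, 5′ to 3′) have the TCF/LEF core CTTTGA in capitals in Sp5, and in Cdx2 the octamer core read on the other strand, ATGCAAA.
Sp5 chr2:70474673-70474922: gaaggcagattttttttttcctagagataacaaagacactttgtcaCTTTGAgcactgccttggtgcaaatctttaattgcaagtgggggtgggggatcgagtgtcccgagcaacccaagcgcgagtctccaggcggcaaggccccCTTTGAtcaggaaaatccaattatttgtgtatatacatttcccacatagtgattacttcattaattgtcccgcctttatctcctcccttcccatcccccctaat
Cdx2 chr5:147307250-147307499: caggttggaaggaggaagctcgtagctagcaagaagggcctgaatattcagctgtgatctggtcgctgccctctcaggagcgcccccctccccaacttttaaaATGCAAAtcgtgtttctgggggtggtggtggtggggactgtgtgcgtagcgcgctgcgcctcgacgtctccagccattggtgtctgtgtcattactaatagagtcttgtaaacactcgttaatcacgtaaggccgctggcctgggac
The cores in Sp5 start 204 and 104 bases before the start, and the octamer in Cdx2 starts 147 bases before it. Of 12 Wnt list genes with a RefSeq window, 4 held CTTTGA in either orientation in at least 1 window (33.3%), as did 2 of 11 caudal genes (18.2%) and 12.7% of all tested genes with windows. Among genes with called positive and negative differences the shares were 12.5% and 13.4%.

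Axin2, a scaffold of the complex that degrades beta-catenin and a widely used Wnt readout, stood at 67.5 and 66.1 CPM in wt mES cells, 40.9 and 37.8 in Hox-/- mES cells, 140.5, 135 and 153 in wt endoderm and 269, 257 and 254 in Hox-/- endoderm. The Hox-/- libraries lay below the wt ones in mES cells and above them in endoderm, with no overlap in either. The effect was -0.80 ± 0.08 (SE, adjusted p = 7.7e-07) in mES cells and 0.87 ± 0.05 (SE, adjusted p = 3.57e-11) in endoderm, and the difference was 1.66 ± 0.09 (SE, adjusted p = 1.16e-10). A predicted gene on the opposite strand overlaps its exons, and whether the counting used strand is not given in the sources used here. Exons of Pou5f1, Sall4, Sox17, Sfrp2, Krt8, Zeb1, Col5a1, Ccnd1, Nkx1-2, Bmp4, H19, Usp29, Meg3, Dnmt3l, Cdkn1a and Pfkp are likewise overlapped by genes on the opposite strand, and those of Pik3r3 and Ap3b2 by predicted genes on the same strand, so these counts carry the same limit. Notum, a secreted enzyme that inactivates Wnt proteins, had a difference of 1.57 ± 0.11 (SE, adjusted p = 2.02e-09), also with overlapping antisense genes. Ccnd1, cyclin D1, had a difference of 1.01 ± 0.08 (SE, adjusted p = 1.4e-08). Sfrp1 went the other way at -1.38 ± 0.10 (SE, adjusted p = 4.8e-09), with equal levels in mES cells (0.01 ± 0.06) and 2.60-fold less in Hox-/- endoderm.

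Cdx2, a homeodomain gene of the posterior embryo and gut, was at 2.39 and 2.64 CPM in wt mES cells, 0.448 and 0.420 in Hox-/- mES cells, 94.3, 94.1 and 108 in wt endoderm and 218, 197 and 207 in Hox-/- endoderm. Hox-/- mES cells held less than wt mES cells, and Hox-/- endoderm held more than wt endoderm, which gave a difference of 3.61 ± 0.47 (SE, adjusted p = 6.77e-07). T, the Brachyury gene, had a difference of 1.98 ± 0.33 (SE, adjusted p = 8.41e-05), with effects of -1.54 ± 0.33 in mES cells and 0.44 ± 0.05 in endoderm. Sp5, a Wnt-induced zinc finger gene, stood at 15.6 and 12.05 CPM in wt mES cells, 3.81 and 3.78 in Hox-/- mES cells, 48.2, 43.1 and 57.8 in wt endoderm and 54.2, 39.6 and 45.04 in Hox-/- endoderm. It was lower in Hox-/- mES cells, with an effect of -1.91 ± 0.26 (SE, adjusted p = 2.67e-05), and its endoderm libraries overlapped between genotypes in range, so the difference of 1.81 ± 0.29 (SE, adjusted p = 5.66e-05) came from mES cells. Fgf17, of the Fgf8 family, was called higher in Hox-/- endoderm (1.83 ± 0.08, SE, adjusted p = 2.89e-13) and not called in mES cells. Wnt5b, a non-canonical ligand, had a difference of 2.02 ± 0.23 (SE), and Nkx1-2, a marker of neuromesodermal progenitors, one of 1.23 ± 0.17 (SE), both called.

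**Figure D3:**
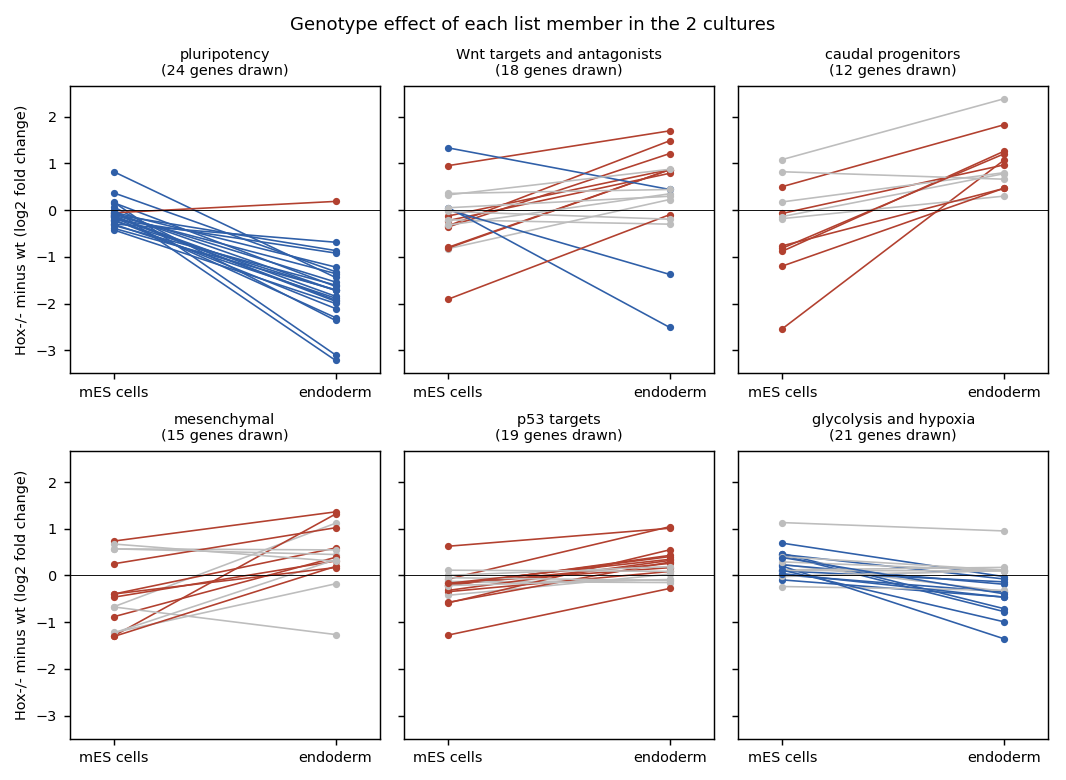
Each line joins the Hox-/- minus wt log2 fold change of 1 gene in mES cells to that in endoderm, for 6 gene lists; genes with 3 counts or fewer in every library of some group are left out. Red lines have a called positive difference, blue lines a called negative one and grey lines none. The pluripotency lines run down except that of Sall4, while most red Wnt and caudal lines start below 0 and end above it.

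Of 18 BMP genes, 3 were called lower in Hox-/- mES cells (Bmp4, Id3 and Bmp2) and 1 higher, against 6.78% and 5.12% of all genes. Bone morphogenetic proteins signal through SMAD factors that induce the Id genes. Of 18 genes tested, 5 had a called positive difference (Bmp4, Id3, Bmp2, Id1 and Bmpr1a) and 1, Bambi, a negative one, against 11.7% and 12.5% of all genes. The median was 0.17, but 0.32 without wt endoderm replicate 3, and 0.31 and 0.29 without Hox-/- mES replicates 1 and 2 in turn. Bmp4, a ligand of the streak and extra-embryonic tissue, stood at 8.23 and 6.61 CPM in wt mES cells, 3.29 and 1.93 in Hox-/- mES cells, 156, 141 and 157 in wt endoderm and 221, 233 and 213 in Hox-/- endoderm. Its genotype order changed between the cultures, and the difference was 2.09 ± 0.23 (SE, adjusted p = 6.77e-07). Id3, an inhibitor of bHLH factors, was at 11.5 ± 0.944 and 4.97 ± 0.693 CPM in wt and Hox-/- mES cells (SD, n = 2) and 102 ± 2.72 and 111 ± 10.2 in endoderm (SD, n = 3), a difference of 1.38 ± 0.18 (SE, adjusted p = 9.53e-06). Bmp2 was at 0 counts in both Hox-/- mES libraries and at 0.332 and 0.233 CPM in wt, so its fitted difference is not given. Id1 and Bmpr1a are named after their values were seen.

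In the Nodal pathway, 4 of 17 genes had a called positive difference and 6 a negative one, against 11.7% and 12.5% of all genes, with a median of -0.14. Tdgf1, the co-receptor Cripto, had -1.17 ± 0.08 (SE, adjusted p = 3.49e-09). Foxh1, the DNA-binding partner of SMAD2 and SMAD3, had -1.30 ± 0.11 (SE, adjusted p = 4.35e-08). Lefty2, a secreted inhibitor induced by Nodal, stood at 139.6 and 130.3 CPM in wt mES cells, 144 and 132 in Hox-/- mES cells, 382, 422 and 467 in wt endoderm and 191, 163 and 172 in Hox-/- endoderm, equal in mES cells and 2.41-fold lower in Hox-/- endoderm. The receptor gene Acvr1b went the other way at 0.82 ± 0.08 (SE, adjusted p = 1.75e-07). The positive calls were Acvr1b, Smad7, Smad3 and Smad2, among them the SMAD genes Smad2, Smad3 and Smad7, which are named after their values were seen.

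FGF and ERK feedback genes were split, where 11.7% of all genes had a called positive difference and 12.5% a negative one. Of 19, 4 had a called positive difference (Spry4, Etv4, Fgfr1 and Spred1) and 3 a negative one (Fgf4, Etv5 and Fgfr4), with a median of -0.14, or -0.48 with floor genes at their bound and 0.02 over the members with 10 counts in every library. Without Hox-/- mES replicate 2, Hox-/- endoderm replicate 2 and wt mES replicate 1 in turn it was -0.03, -0.09 and -0.25, and -0.09 with offsets for GC content and length. Spred1, Etv5 and Fgfr4 are named after their values were seen. Fgf4, a ligand made by stem cells, had -3.27 ± 0.26 (SE, adjusted p = 1.52e-09), from 5.71 ± 1.06 CPM in wt endoderm to 0.664 ± 0.102 in Hox-/- endoderm (SD, n = 3). Spry4, an ERK pathway inhibitor, stood at 4.38 and 5.98 CPM in wt mES cells, 0.747 and 0.588 in Hox-/- mES cells, 53.1, 47.2 and 48.7 in wt endoderm and 45.8, 43.3 and 45.5 in Hox-/- endoderm. Hox-/- mES cells held 7.73-fold less than wt, in a medium with a MEK inhibitor, while in endoderm every Hox-/- library lay slightly below every wt one, with an effect of -0.14 ± 0.07 that was not called. The difference was 2.81 ± 0.35 (SE, adjusted p = 6.63e-07). Etv4, an ERK-responsive transcription factor, was lower in Hox-/- mES cells (-0.68 ± 0.08, SE, adjusted p = 1.59e-05) and 0.18 ± 0.06 (SE, adjusted p = 0.0173) in endoderm.

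A set of genes reversed its genotype effect between the cultures. Of the 447 called in both with opposite signs, 83 had an effect of at least 1.5-fold in each culture, 33 with a positive and 50 with a negative difference. By the smaller evidence in either culture, Axin2, Limch1, Tmsb4x and Mmp14 led the genes that were higher in Hox-/- endoderm. Limch1, an actomyosin regulator, stood at 10.7 and 10.8 CPM in wt mES cells, 3.44 and 4.37 in Hox-/- mES cells, 86.9, 85.3 and 95.6 in wt endoderm and 191, 204 and 189 in Hox-/- endoderm. The Hox-/- libraries were the low ones in mES cells and the high ones in endoderm, with effects of -1.50 ± 0.16 (SE, adjusted p = 1.79e-06) and 1.13 ± 0.05 (SE, adjusted p = 1.43e-12). Tmsb4x, which binds actin monomers, had effects of -0.71 ± 0.08 and 0.59 ± 0.05, and Mmp14, a membrane metalloproteinase, -1.24 ± 0.16 and 0.70 ± 0.06, in mES cells and endoderm.

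Emb, Fabp3, Otx2 and Ap3b2 led those that were lower in Hox-/- endoderm. Otx2, a homeodomain gene of the primed epiblast and anterior embryo, stood at 5.51 and 6.68 CPM in wt mES cells, 13.6 and 15.5 in Hox-/- mES cells, 46.2, 41.4 and 37.9 in wt endoderm and 13.4, 15.1 and 15.4 in Hox-/- endoderm. It was 2.33-fold higher in Hox-/- than in wt mES cells and 2.85-fold lower in Hox-/- than in wt endoderm, a difference of -2.74 ± 0.18 (SE, adjusted p = 8.44e-10). The antisense transcript Otx2os1 overlaps its exons. Emb, embigin, a partner of lactate transporters, was at 13.7 and 14.1 CPM in wt mES cells, 27.2 and 26.7 in Hox-/- mES cells, 281, 237 and 229 in wt endoderm and 56.9, 57.3 and 60.2 in Hox-/- endoderm. Its levels rose from mES cells to endoderm in either genotype, and the genotype order turned, with a difference of -3.02 ± 0.13 (SE, adjusted p = 6.98e-12); a predicted gene on the opposite strand overlaps its exons. Fabp3, a fatty acid binding protein gene, had effects of 0.81 ± 0.09 (SE, adjusted p = 6.69e-06) and -1.73 ± 0.11 (SE, adjusted p = 5.58e-11); 2 genes overlap it on the opposite strand. Ap3b2, an adaptor protein subunit, had 0.69 ± 0.10 (SE, adjusted p = 9.04e-05) and -0.62 ± 0.08 (SE, adjusted p = 1.27e-06).

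**Figure D4:**
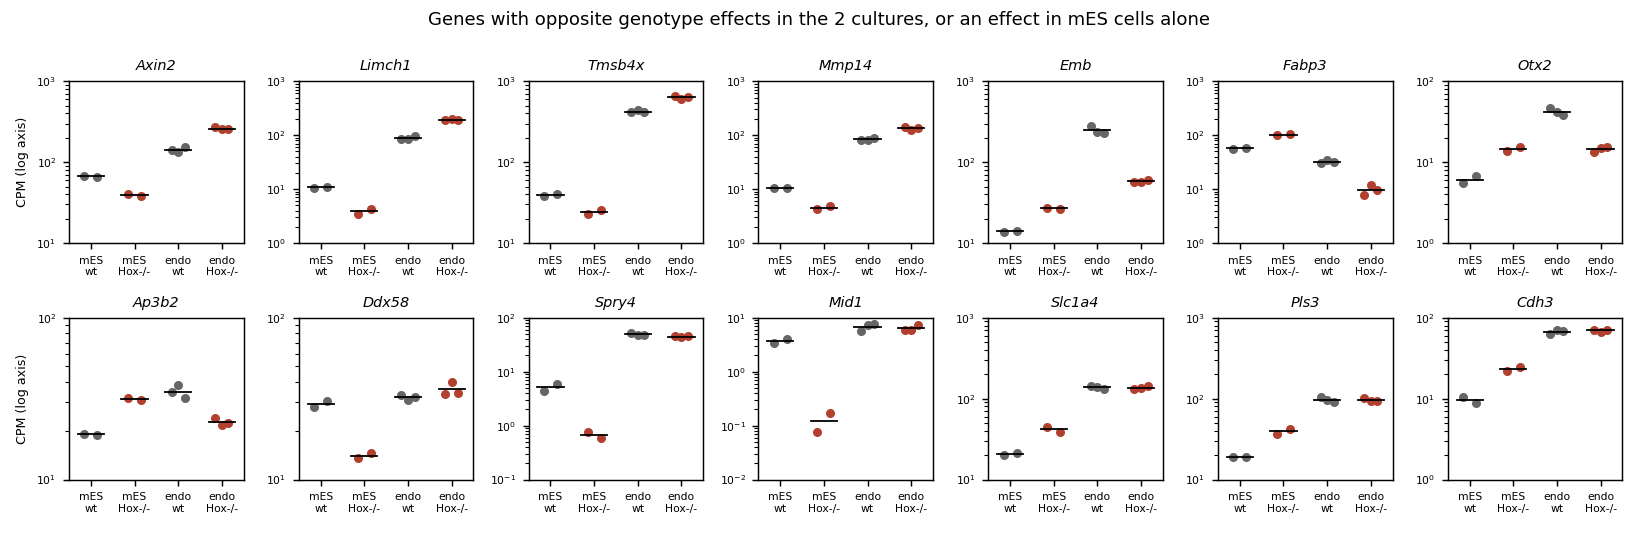
Level of 14 genes in each library in CPM on a log axis, wt in grey and Hox-/- in red, with the group mean as a bar. Axin2 to Mmp14 are lower in Hox-/- mES cells and higher in Hox-/- endoderm, Emb to Ap3b2 the reverse, and for the 6 genes from Ddx58 to Cdh3 the genotypes are apart in mES cells and lie close together in endoderm.

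Other genes differed between genotypes in mES cells and not in endoderm. Mid1, a microtubule-associated ubiquitin ligase on the X chromosome, stood at 3.45 and 4.04 CPM in wt mES cells, 0.0747 and 0.168 in Hox-/- mES cells, 5.60, 7.32 and 7.59 in wt endoderm and 6.02, 5.97 and 7.24 in Hox-/- endoderm. The Hox-/- mES libraries held 3 counts between them and the wt ones 104, a ratio of 31.4-fold (95% exact counting interval 10.4 to 154.7, which covers counting error only), whereas the endoderm libraries overlapped between genotypes. Several genes lie on the strand opposite to Mid1. Ddx58, which encodes the viral RNA sensor RIG-I, was at 29.4 ± 1.90 and 14.03 ± 0.718 CPM in wt and Hox-/- mES cells (SD, n = 2) and had a difference of 1.27 ± 0.13 (SE, adjusted p = 5.61e-07). In the other direction, Cdh3, placental cadherin, stood at 10.4 and 8.94 CPM in wt mES cells, 22.2 and 24.7 in Hox-/- mES cells, 62.9, 69.8 and 68.6 in wt endoderm and 71.4, 67.5 and 70.1 in Hox-/- endoderm, higher in Hox-/- mES cells with overlapping endoderm libraries, a difference of -1.18 ± 0.13 (SE, adjusted p = 1.12e-06). Slc1a4, an amino acid transporter, and Pls3, an actin-bundling protein, were likewise about 1.98-fold and 2.03-fold higher in Hox-/- mES cells, with endoderm effects of -0.02 ± 0.05 and -0.02 ± 0.06.

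Among the named genes with a positive difference of the genotype effects, Tubb3 had the smallest p for that difference. It encodes a tubulin best known from neurons. Its levels were 94.6 and 99.5 CPM in wt mES cells, 90.5 and 80.5 in Hox-/- mES cells, 4.38, 5.14 and 5.54 in wt endoderm and 40.6, 35.8 and 45.8 in Hox-/- endoderm. The wt endoderm libraries were the only low ones: Tubb3 dropped from mES cells to endoderm by 4.38 log2 units in wt and dropped by 1.15 in Hox-/- cells. The difference was 3.23 ± 0.16 (SE, adjusted p = 1e-11). Other neuronal genes did not share one direction, with 5 called positive differences (Tubb3, Crmp1, Gap43, Isl1 and Dpysl3) and 4 negative ones (Mapt, Nefh, Ina and Elavl4) of 16 tested and a median of 0.43. Over all genes, 11.7% had a called positive difference and 12.5% a negative one. Crmp1, an axon guidance mediator, had 1.999 ± 0.21 (SE, adjusted p = 5.49e-07). Gap43, Isl1, Dpysl3, Ina and Elavl4 are named after their values were seen, and Isl1 and Nefh were at the floor in 1 group. Neural progenitor genes summed to 113 to 138 CPM in wt endoderm and 79.6 to 87.6 in Hox-/- endoderm, and 1 of 11, Sox21, had a called difference, a negative one.

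Hmga2, an architectural chromatin protein, was at 63.8 ± 1.27 and 31.2 ± 0.0972 CPM in mES cells of wt and Hox-/- (SD, n = 2) and at 606 ± 6.40 and 784 ± 8.17 in endoderm (SD, n = 3), a difference of 1.44 ± 0.07 (SE, adjusted p = 4.07e-11); a gene on the opposite strand overlaps its exons. Pik3r3, a regulatory subunit of PI3-kinase, stood at 30.7 and 33.9 CPM in wt mES cells, 21.3 and 21.5 in Hox-/- mES cells, 17.04, 17.6 and 15.8 in wt endoderm and 43.4, 51.6 and 48.4 in Hox-/- endoderm. The genotype order turned between the cultures, and the difference was 2.13 ± 0.13 (SE, adjusted p = 2.97e-10). Emp1, an epithelial membrane protein gene, had 2.71 ± 0.17 (SE, adjusted p = 3.87e-10), most of it from a 3.93-fold lower level in Hox-/- mES cells. Ngfr, the low-affinity neurotrophin receptor, had 1.77 ± 0.11 (SE, adjusted p = 9.54e-10). Skap2, an adaptor protein gene next to the Hoxa cluster, was equal in mES cells (0.00 ± 0.06) and higher in Hox-/- endoderm (1.13 ± 0.05, SE, adjusted p = 2.64e-13), with no overlap between the endoderm genotypes.

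Imprinted genes, which are expressed from only the maternal or the paternal copy, gave large single-gene differences in either direction. Of 35 tested, 7 had a called positive difference and 6 a negative one, against 11.7% and 12.5% of all genes. The median of 0.13 became 0.06, 0.03 and 0.07 without Hox-/- endoderm replicate 2, Hox-/- mES replicate 1 and wt mES replicate 1 in turn. Grb10, an adaptor that restrains insulin and IGF receptor signalling, had the smallest p of any gene named here. It stood at 43.95 and 46.5 CPM in wt mES cells, 43.5 and 47.1 in Hox-/- mES cells, 199, 202 and 214 in wt endoderm and 20.4, 22.3 and 21.7 in Hox-/- endoderm. The mES genotypes overlapped in range, and wt endoderm lay 9.53-fold above Hox-/- endoderm. The difference was -3.22 ± 0.09 (SE, adjusted p = 1.64e-14): Grb10 rose by 2.06 log2 units from mES cells to endoderm in wt, and fell by 1.16 in Hox-/- cells.

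H19, a maternally expressed non-coding RNA, went the other way. Its levels were 3.39 and 1.55 CPM in wt mES cells, 2.09 and 2.69 in Hox-/- mES cells, 342, 387 and 423 in wt endoderm and 4047, 4228 and 4181 in Hox-/- endoderm. Every Hox-/- endoderm library lay above every wt one, by 10.8-fold in the fitted means, and the difference was 3.57 ± 0.33 (SE, adjusted p = 3.02e-07). Igf2r, which clears IGF2 from the cell surface, stood at 108 and 104 CPM in wt mES cells, 161 and 151 in Hox-/- mES cells, 249, 249.9 and 254 in wt endoderm and 129.8, 134 and 125 in Hox-/- endoderm. Hox-/- cells held more than wt in mES cells (0.52 ± 0.06) and less in endoderm (-0.95 ± 0.04), a difference of -1.47 ± 0.07 (SE, adjusted p = 2.6e-11). Usp29, a paternally expressed gene, had effects of 1.34 ± 0.16 in mES cells and -0.23 ± 0.09 in endoderm. In the insulin-like growth factor list, 3 of 14 genes had a called positive difference (Igfbp5, Igf2bp1 and Igfbp7) and 3 a negative one (Igf2r, Igfbp2 and Igfbp4). Again the shares over all genes were 11.7% and 12.5%. Igfbp5, a binding protein, stood at 33.98 ± 5.28 CPM in wt endoderm and 219 ± 6.19 in Hox-/- endoderm (SD, n = 3), with a difference of 3.04 ± 0.41 (SE, adjusted p = 2.38e-05).

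Among 12 genes for enzymes and regulators of DNA methylation, 3 had a called positive difference (Tet3, Uhrf1 and Zfp445) and 4 a negative one (Dnmt3b, Dnmt3l, Tet1 and Dnmt3a). Over all genes these shares were 11.7% and 12.5%. Dnmt3b, a de novo methyltransferase, had -0.86 ± 0.07 (SE, adjusted p = 3.38e-08), and Dnmt3l, its catalytically inactive partner, -1.44 ± 0.14 (SE, adjusted p = 2.21e-07). For Dnmt3l the Hox-/- effect was negative in either culture, -0.71 ± 0.10 in mES cells and -2.15 ± 0.10 in endoderm. Tet1, which oxidises methylcytosine, had -0.80 ± 0.12 (SE), and Tet3, of the same family, 0.77 ± 0.18 (SE), both called. Uhrf1, Zfp445 and Dnmt3a are named after their values were seen.

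Genes of the p53 response had 12 called positive differences and no negative ones of 20 tested, against 11.7% and 12.5% of all genes, with a median of 0.45. The p53 protein activates genes that halt the cell cycle or start cell death after stress. In Hox-/- mES cells 8 of the 20 were called lower (6.78% of all genes) and 1 higher (5.12%), and in Hox-/- endoderm 11 were called higher (22.1%) and 2 lower (24.0%). Cdkn1a, the cell cycle inhibitor p21, stood at 164 and 164 CPM in wt mES cells, 165 and 153 in Hox-/- mES cells, 294, 285 and 332 in wt endoderm and 656, 579 and 641 in Hox-/- endoderm. Its mES genotypes overlapped in range and its endoderm genotypes did not, with a difference of 1.12 ± 0.10 (SE, adjusted p = 5.55e-08). Plk2, a kinase of the same response, reversed, with effects of -0.59 ± 0.08 and 0.55 ± 0.05. The differences were 0.65 ± 0.07 (SE) for Ccng1 and 0.86 ± 0.10 (SE) for Btg2, both called.

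Of 21 glycolysis and hypoxia genes, 12 had a called negative difference and none a positive one, against 12.5% and 11.7% of all genes, with a median of -0.37. In Hox-/- mES cells 7 were called higher (5.12% of all genes) and none lower (6.78%), while in Hox-/- endoderm 10 were called lower (24.0%) and 1 higher (22.1%). Slc2a3, a high-affinity glucose transporter gene, stood at 1329 and 1338 CPM in wt mES cells, 1457 and 1494 in Hox-/- mES cells, 1361, 1345 and 1259.5 in wt endoderm and 664, 672 and 653 in Hox-/- endoderm. The Hox-/- endoderm libraries were the only low ones, and the difference was -1.10 ± 0.07 (SE, adjusted p = 3.32e-10). Pfkp, a phosphofructokinase, had -1.55 ± 0.12 (SE, adjusted p = 7.24e-09). Vegfa, a hypoxia-induced growth factor, was higher in Hox-/- mES cells (0.38 ± 0.08) and lower in Hox-/- endoderm (-0.39 ± 0.05). Sterol and fatty acid synthesis genes showed 5 called positive differences of 25 (Scd2, Hmgcs1, Sc5d, Mvk and Insig1), a share of 20%, and no negative ones, so that fewer were called in all than the 24.1% over all genes, with a median of 0.07; the call of Mvk was lost under 11 of the 18 alternatives and that of Sc5d under 3.

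Of 21 interferon and antigen presentation genes, 5 had a called positive difference and 3 a negative one, against 11.7% and 12.5% of all genes. Irf1, H2-D1, Ifitm3 and Tap1 were among the positive ones. The 3 negative ones, H2-Eb1, H2-Ab1 and Cd74, belong to MHC class II presentation; the latter 2 are named after their values were seen. H2-Eb1 stood at 13.7 and 14.2 CPM in wt mES cells, 39.4 and 37.2 in Hox-/- mES cells, 1.87, 1.32 and 1.53 in wt endoderm and 1.02, 0.308 and 0.882 in Hox-/- endoderm, higher in Hox-/- mES cells and lower in Hox-/- endoderm, with a difference of -2.48 ± 0.34 (SE, adjusted p = 1.71e-05). The MHC class I gene H2-D1 did the reverse in mES cells (-0.98 ± 0.16, SE, adjusted p = 0.000326) and had an endoderm effect of -0.02 ± 0.07, not called.

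The remaining lists had calls in one or both directions, read against 11.7% positive and 12.5% negative of all genes. Of 22 replication and mitosis genes, 4 were called positive (Rrm2, Mcm4, Ccne1 and Mcm6) and 2 negative (Ccnb1 and Cenpa). Of 20 collagens and laminins, 2 were positive (Col5a1 and Lamc1) and 4 negative (Nid2, Nid1, Lama1 and Hspg2). Of 13 primitive streak genes, 4 were positive (Sp5, T, Fgf17 and Evx1) and 2 negative (Nodal and Cfc1), Evx1 and Cfc1 being at the floor in mES groups. Formative and primed genes gave 4 positive calls of 12 (Etv4, Lef1, Pou3f1 and Sox4) and 4 negative ones (Otx2, Dnmt3b, Dnmt3a and Zic5). Parietal endoderm genes gave 2 positive (Lamc1 and Sparc) and 3 negative (Srgn, Lama1 and Pdgfra) of 13. Cardiac genes gave 3 positive (Smarcd3, Tnni1 and Nkx2-5, the last at the floor in Hox-/- mES cells) and 2 negative (Ryr2 and Myh6) of 16. Of 12 presomitic and somitic genes, Lfng was positive and Meox1 and Dll3 negative, and of 10 regional gut genes, Cdx2 and Cdx1 were positive. Without 1 or more of the mES libraries in turn the calls of Lfng, Dll3, Sparc, Tnni1 and Myh6 were lost, and those of Lfng, Tnni1 and Myh6 also with DESeq2. In these lists any call beyond the 4 of smallest p is named after its values were seen. The lists share members, so some calls repeat those given above. Sp5 and Lef1 also stand in the Wnt list, and Cdx2 and Evx1 in the caudal list. For the streak list the median was 1.03, but -0.20 with floor genes at their bound and -0.22 over the members with 10 counts in every library, a turn of direction; it was 0.49 without wt mES replicate 2 and 0.47 with DESeq2.

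**Figure D5:**
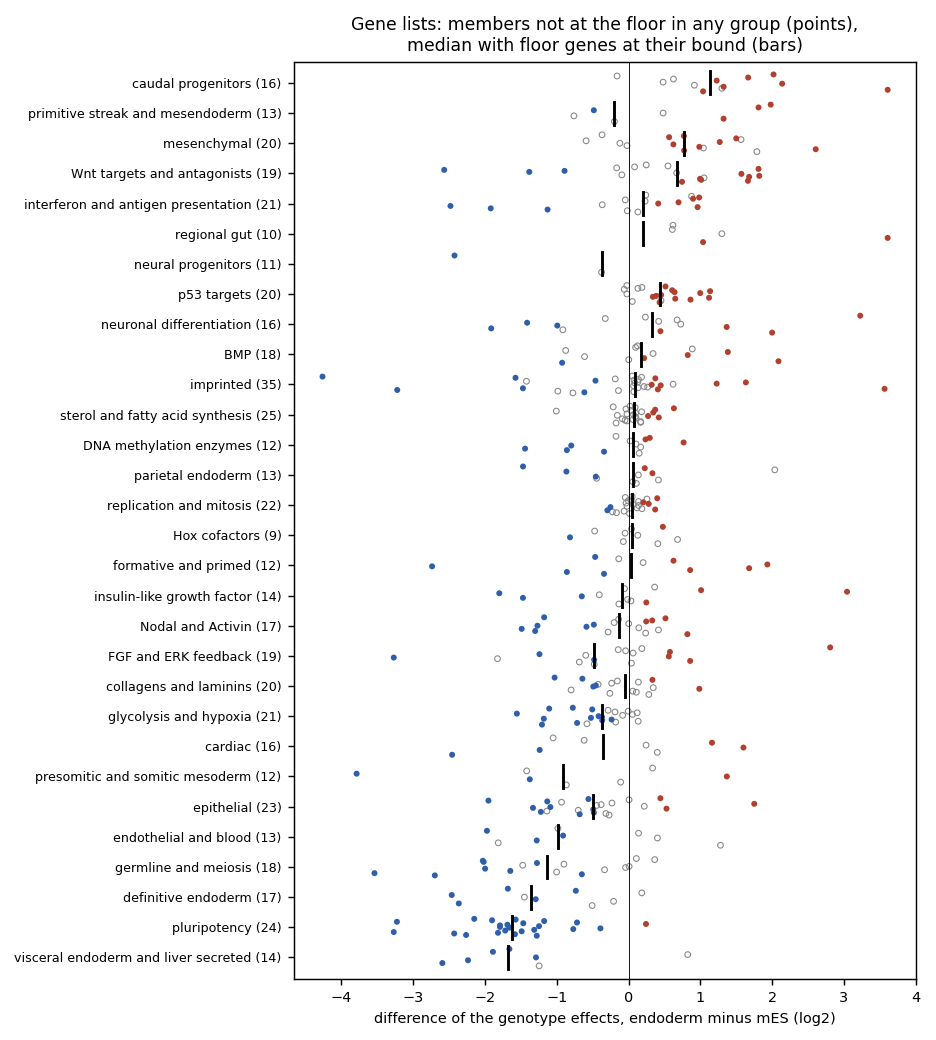
Difference of the genotype effects (endoderm minus mES, log2) for members of 30 gene lists, with the number tested in brackets. Points are genes above the floor in every group, filled red or blue where called positive or negative and open where not, and black bars are list medians with floor genes set to their bound. The pluripotency points all but one lie left of 0 and are filled blue, and the p53 and mesenchymal lists hold no blue point.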

How the data were processed

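The counts deposited by the authors are whole, unnormalized read numbers for each Ensembl gene in each library. The FPKM values deposited by the authors, scaled by transcript length and library total, gave gene symbols and positions and served only for the Hox sum. The submitters' processing notes name mm10, cutadapt 1.16, STAR and Cufflinks 2.2.1; the counting tool and its strand setting are not given in the sources used here. RNA was poly(A)-selected and a stranded kit was used, per the labels' protocols.

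The mES and endoderm count tables were joined by gene identifier and the 10 libraries fitted together with edgeR 4.0.16 (R 4.3.3): filterByExpr, TMM scaling, 1 coefficient per group, quasi-likelihood tests of the difference of genotype effects and of its parts, and Benjamini-Hochberg adjustment over 16251 genes. Genes were called at an adjusted p below 0.05. The common biological coefficient of variation was 0.0483. The 39 Hox genes and chromosome Y stayed in the fit and were left out of the description. CPM are counts scaled to a library total of 1 mega, given per library or as mean ± SD; log2 effects are edgeR's, with Wald standard errors from the fitted weights and the quasi-dispersion. A group is at the floor when every library holds 3 counts or fewer, 0.17 to 0.252 CPM. Counting intervals are exact at 95%. Positions and windows are 1-based, and the windows come from RefSeq on GRCm38.p6.

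Members and gene lists were chosen with earlier results of these data known, and no list was tested as a set. Named genes were, in each direction, the 8 of smallest p among differences of 2-fold or more that reached 1 CPM in some group and whose library ratios did not overlap, 4 with opposite effects of at least 1.5-fold, 3 with an effect in mES cells alone, up to 4 called members per list, and the markers; predicted genes were left out. Some listed genes are not reported here. In a list with few calls, further members were named after their values were seen. One listed gene, Aldoa, was not matched by its symbol. Alternatives were RLE size factors, total counts alone, no filter, 10 counts in every library, DESeq2 1.42.0, a replicate block, removal of Hox and chromosome Y genes, each library left out, fits of 2 groups alone, the FPKM sum, and offsets for GC content and transcript length, the last chosen after seeing the data. In simulated counts, with 200 of 16251 genes changed in this difference, 73.1% of 1.5-fold, 92.5% of 2-fold and 97.0% of 4-fold changes were recovered, and 6.42% of calls were false. The changed genes were drawn only from genes above a minimum mean level and were changed in Hox-/- endoderm alone. No other gene carried a genotype effect, unlike in the data. The recovery therefore does not cover genes with few counts.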

Additional observations from a re-analysis of the deposited data

Results flagged for a closer look

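The genotype effect differed between endoderm cultures and mES cells, by the test of the difference itself, in 3912 genes. Of these, 27 genes that the naming rules chose are listed with that log2 difference. With a positive difference these were Tubb3 at 3.23, Hmga2 at 1.44, Axin2 at 1.66, Pik3r3 at 2.13, Emp1 at 2.71, Limch1 at 2.63, Ngfr at 1.77, Skap2 at 1.13, Tmsb4x at 1.30, Mmp14 at 1.93, Ddx58 at 1.27, Spry4 at 2.81 and Mid1 at 4.81. With a negative one they were Grb10 at -3.22, Dppa5a at -2.43, Tdh at -2.17, Emb at -3.02, Zfp42 at -2.15, Apoe at -2.24, Nanog at -1.66, Esrrb at -1.82, Fabp3 at -2.54, Otx2 at -2.74, Ap3b2 at -1.31, Slc1a4 at -1.001, Pls3 at -1.05 and Cdh3 at -1.18. The value for Mid1 rests on 3 counts in Hox-/- mES cells. No group had the 4 libraries that a test for a single deviating library needs.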

How the results depend on the processing

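Of the 122 genes that the naming rules chose with a called difference, 110 were called under each of the 18 alternatives that gave them an adjusted p, and none changed direction. The 12 others lost the call under 1 or more: Apob, Dll3, Etv2, Kdr, Lfng, Mvk, Myh6, Pknox2, Rbp4, Sc5d, Sparc and Tnni1. The count of genes with a called difference ran from 2963 (DESeq2) to 4813 (offsets for GC content and transcript length, chosen after seeing the data) and, with 1 library left out at a time, from 2718 to 4031. Positive calls ran from 1108 to 1947 in those leave-one-out fits, and calls of 2-fold or more numbered 705 when 10 counts in every library were required, which left out genes silent in one culture. The positive share of calls was 48.3%, 40.9% under total counts alone and 54.1% under the offsets. The mES contrast moved most, to 1213 with DESeq2, 3154 with its 2 groups fitted on their own, and 685 to 2297 with 1 library left out. In the leave-one-out fits that leave 1 library in a group, that library is assumed to vary like the others. The summed Hox level in Hox-/- endoderm was 3.009% of wt in counts and 3.458% in FPKM. With the replicate number as a block (replicate block) 4013 genes were called. Same-numbered endoderm libraries had deviations correlated at -0.30, 0.24 and 0.02, and 2 of the 6 correlated best with their own number. Between mES cells and endoderm, same-numbered libraries correlated at 0.35 and 0.38 in Hox-/- and at -0.18 and 0.02 in wt. With so few libraries these values cannot settle whether the numbers pair the samples. Medians of 25 of the 30 lists moved by more than their spread over single libraries under some alternative. Depth limits the 969 genes at 3 counts or fewer in every mES library.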

Other observations

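Some listed genes outside the naming rules are given with their values, chosen after those were seen. Zim1, a maternally expressed zinc finger gene, stood at 34.6 ± 2.05 CPM in wt endoderm and 1.18 ± 0.409 in Hox-/- endoderm (SD, n = 3), with a difference of -4.26 ± 0.62 (SE, adjusted p = 0.000258). Sfrp5, a secreted Frizzled-related protein gene, had a difference of -2.57 ± 0.58 (SE, adjusted p = 0.00365), and Rab25, an epithelial trafficking GTPase gene, one of -1.95 ± 0.38 (SE, adjusted p = 0.000738). Dppa3, a maternal-effect and naive-state gene, was higher in Hox-/- mES cells (0.82 ± 0.14, SE, adjusted p = 0.000563) and lower in Hox-/- endoderm (-1.44 ± 0.13, SE, adjusted p = 1.55e-08). Perp, a p53 target of epithelia, was lower in Hox-/- cells in either culture, -1.28 ± 0.17 in mES cells and -0.28 ± 0.09 in endoderm.

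Certain genotype effects were of similar size in the 2 cultures. Rhox5, an X-linked homeobox gene, was lower in Hox-/- mES cells (-1.43 ± 0.20, SE, adjusted p = 4.86e-05) and in Hox-/- endoderm (-1.43 ± 0.11, SE, adjusted p = 1.2e-09), and their difference was 0.01 ± 0.23 (SE). The maternally expressed RNAs Meg3 and Rian of the Dlk1-Dio3 cluster were higher in Hox-/- cells in either culture, with differences of 0.07 ± 0.16 (SE) and 0.08 ± 0.08 (SE), and the paternally expressed Dio3 and Peg10 were lower in either, with differences of 0.07 ± 0.31 (SE) and 0.09 ± 0.12 (SE). None of these differences was called, which does not show that the effects were equal.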
